A study of Mus musculus with 7 samples.

Results

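A set of 10 genes of epidermal growth factor (EGF) receptor signalling was followed in mouse fibroblasts given the Syk inhibitor R406 or its solvent DMSO in an early phase of chemical reprogramming. They are 6 ligand genes (Areg, Ereg, Epgn, Tgfa, Hbegf and Btc), 3 receptor genes (Egfr, Erbb2 and Erbb3) and Errfi1, which encodes an inhibitor of the receptors. They are 10 of the 53715 genes in the deposited table, matched by symbol to Ensembl identifiers. The set was chosen by name with the R406 and DMSO TPM values in view, and so was selected on the RNA contrast itself; the RNA differences of these 10 genes are therefore described. They also entered the fit over all genes, and its calls on them are counted once as a description, not as support. All 10 were found in the table.

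RNA-seq was run on 2 libraries of R406-treated and 2 libraries of DMSO-treated cells. The cells were embryonic fibroblasts of embryonic day 13.5 from CBA-Tg(Pou5f1-EGFP)2Mnn/J (OG2) mice, whose transgene reports Pou5f1 activity as green fluorescence. Both groups grew in Stage 1 medium, under a 12-day protocol, with 10% KSR, 10% FBS, basic fibroblast growth factor (bFGF) at 20 ng/ml, VPA, CHIR99021, 616452, Parnate, AM580, EPZ004777, vitamin C and 50 μM Forskolin, which raises cyclic AMP. CUT&Tag, which cuts DNA beside a bound antibody, used an antibody to FLAG and gave 1 R406 and 1 DMSO library, after 4 days of treatment. Those fibroblasts, of the same mice, carried rtTA and TetO-Flag-Nfatc1 lentivirus and received doxycycline, so the peaks are those of introduced, tagged Nfatc1 and not of the cells' own protein. A blank CUT&Tag library was not analysed here. The sources used here give neither the R406 concentration nor the day of RNA harvest.

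EGF family ligands are made as membrane-anchored precursors, are cut free by ADAM proteases, and bind receptor tyrosine kinases of the ERBB family on the same or neighbouring cells. Areg (amphiregulin) and Tgfa bind Egfr alone, whereas Ereg (epiregulin), Hbegf and Btc (betacellulin) also bind Erbb4. Bound receptors pair, often with Erbb2, which has no known ligand of its own, and drive the RAS-ERK cascade, which in turn raises RNA of several inhibitors of the pathway. Fibroblasts are known to carry Egfr and to divide in response to its ligands.

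Values were in TPM, transcript abundance corrected for length and scaled to a fixed total. The unit keeps no read depth, so the number of reads behind a value is unknown. The count of genes at 1 TPM or more ran from 13537 to 14045 over the libraries. The share of TPM in ribosomal protein genes was 19.3% and 22.3% in R406 and 14.0% and 15.4% in DMSO. Fibroblast markers were abundant in all 4 libraries, with 12 genes summing to 6081 and 4354 TPM in R406 and 4987 and 3914 TPM in DMSO; 2 of the 12 rose by limma, a moderated test fitted over all genes, namely Col3a1 (log2 difference 1.58) and Postn (1.68). The 11 epithelial markers summed to 915 and 516 TPM in R406 and 191 and 177 TPM in DMSO, and 8 of 10 tested rose by the same test. The 10 macrophage markers summed to 7.35 and 7.44 TPM in R406 and 270 and 231 TPM in DMSO; all 8 tested fell, Ptprc was listed at 0 in both R406 libraries, and Adgre1 and Tyrobp were at 0 in 1 each. The 8 extraembryonic endoderm markers summed to 453 and 322 TPM in R406 and 236 and 248 TPM in DMSO, with 5 of 8 higher. Pdgfra, which is also among the fibroblast markers, made 169 and 157 TPM of these sums in R406 and 195 and 194 TPM in DMSO. It did not pass the test (log2 difference −0.25). The 6 endothelial markers summed to at most 12.7 TPM in an R406 and at most 23.8 TPM in a DMSO library, with 1 of 4 lower. Over all genes tested, 4.05% were called lower and 4.26% higher. Genes averaging 1 TPM or more were tested. Csf1r, C1qa, C1qb, C1qc, Tyrobp, Fcer1g and Cd34 averaged under 1 TPM in R406, and Esrp1 and Sall4 did so in DMSO. These markers passed that filter through their higher group, so their calls are descriptions only. The part that these cell types play in the ligand and receptor values was not tested. In bulk samples fewer cells of a type and less RNA per cell cannot be told apart. No label states that the replicates are separate cultures; p-values therefore rest on the scatter among these 4 libraries, some or all of which may be technical.

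The ligand genes Epgn, Ereg, Areg and Btc lie next to each other on mouse chromosome 5 (mm10, 91027517 to 91402994). Areg and Epgn, which were both far lower in R406, have promoters in the RefSeq table of GRCm38.p6, the same build as mm10, as do 7 of the 10 genes in all. Errfi1 is shown with them because the second of its promoters held an Nfatc1 peak in both libraries. The 250 bases before each start site are given on the gene's strand (plus for all 3), at chr5:91139349-91139598 for Areg, chr5:91027267-91027516 for Epgn and chr4:150854820-150855069 for Errfi1. Capitals mark GGAAA, the core of NFAT sites, and TGACGTCA, the cyclic AMP response element.
Areg: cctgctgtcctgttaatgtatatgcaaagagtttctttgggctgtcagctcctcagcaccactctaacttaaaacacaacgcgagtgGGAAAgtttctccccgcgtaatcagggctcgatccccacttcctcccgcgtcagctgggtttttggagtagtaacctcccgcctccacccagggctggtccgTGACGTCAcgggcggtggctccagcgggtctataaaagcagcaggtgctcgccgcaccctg
Epgn: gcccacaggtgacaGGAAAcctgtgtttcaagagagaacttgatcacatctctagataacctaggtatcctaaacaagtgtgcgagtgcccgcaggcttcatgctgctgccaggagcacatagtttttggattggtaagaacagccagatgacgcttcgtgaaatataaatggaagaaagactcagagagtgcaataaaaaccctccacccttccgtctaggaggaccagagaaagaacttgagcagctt
Errfi1: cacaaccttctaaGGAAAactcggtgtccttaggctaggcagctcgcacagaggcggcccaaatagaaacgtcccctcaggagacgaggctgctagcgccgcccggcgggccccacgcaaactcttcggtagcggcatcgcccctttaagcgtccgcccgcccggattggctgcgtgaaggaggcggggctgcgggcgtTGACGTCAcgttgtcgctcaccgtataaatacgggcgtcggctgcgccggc
Both strands were searched for GGAAA, TGACGTCA and TGANTCA, the last an AP-1 site, and no matches overlapped. The printed windows of Areg and Errfi1 each held 1 GGAAA and 1 TGACGTCA, and the TGACGTCA lay 61 bases before the start of Areg and 51 before that of Errfi1, whereas Epgn held 1 GGAAA and no TGACGTCA. The table gives 8 windows for 7 of the 10 genes: 4 held GGAAA (those 3 and Btc), 2 held TGACGTCA and 0 held TGANTCA. The windows of Tgfa, Egfr, Erbb2 and the first promoter of Errfi1 held none of the motifs. Among 32851 promoter windows of this length, 55.6% held GGAAA, 1.55% TGACGTCA and 6.75% TGANTCA. A match is a stretch of letters and not a shown binding site.

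Areg and Ereg were the most abundant ligand RNAs in DMSO-treated cells and were a small remainder in R406-treated cells. Areg stood at 0.928 and 0.912 TPM in the R406 libraries, against 51.9 and 33.5 TPM in the DMSO libraries. The groups were far apart: the lower DMSO value was 36.1 times the higher R406 value. Areg averaged 0.920 ± 0.0117 TPM in R406 and 42.7 ± 13.0 TPM in DMSO (SD, n = 2 each). The log2 difference (R406 minus DMSO, on log2(TPM + 1), which understates the change of low genes, here and below) was −4.47 ± 0.26 (standard error of the limma fit, n = 2 per group). Ereg, whose product binds Egfr and Erbb4, stood at 1.20 and 1.63 TPM in R406 and at 34.3 and 27.8 TPM in DMSO. Again the libraries were well apart, with a factor of 17.0 between the nearest values and a log2 difference of −3.73 ± 0.22. Epgn (epigen), a weakly binding Egfr ligand, measured 0.0828 and 0.152 TPM in R406, against 5.22 and 3.46 TPM in DMSO. Its nearest values differed by a factor of 22.8 and its log2 difference was −2.24 ± 0.24. Areg, Epgn and Hbegf averaged under 1 TPM in R406, and Tgfa and Erbb3 did so in DMSO, so these 5 passed the filter on low values through their higher group.

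Tgfa ran the other way. This gene of transforming growth factor alpha had 3.84 and 2.50 TPM in R406 and 0.563 and 1.04 TPM in DMSO, so that both R406 libraries lay above both DMSO libraries. The means were 3.17 ± 0.951 and 0.802 ± 0.338 TPM (SD, n = 2 each), with a log2 difference of 1.20 ± 0.26. Hbegf, the heparin-binding ligand, had 1.07 and 0.785 TPM in R406 and 1.81 and 1.32 TPM in DMSO. Its groups did not overlap but lay close, with a factor of 1.23 between the nearest values. Btc was near the bottom of the range, at 0.0596 and 0.109 TPM in R406 and 0.267 and 0.246 TPM in DMSO, and did not reach the mean of 1 TPM needed for the fit. The other 9 genes did.

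**Figure D1:**
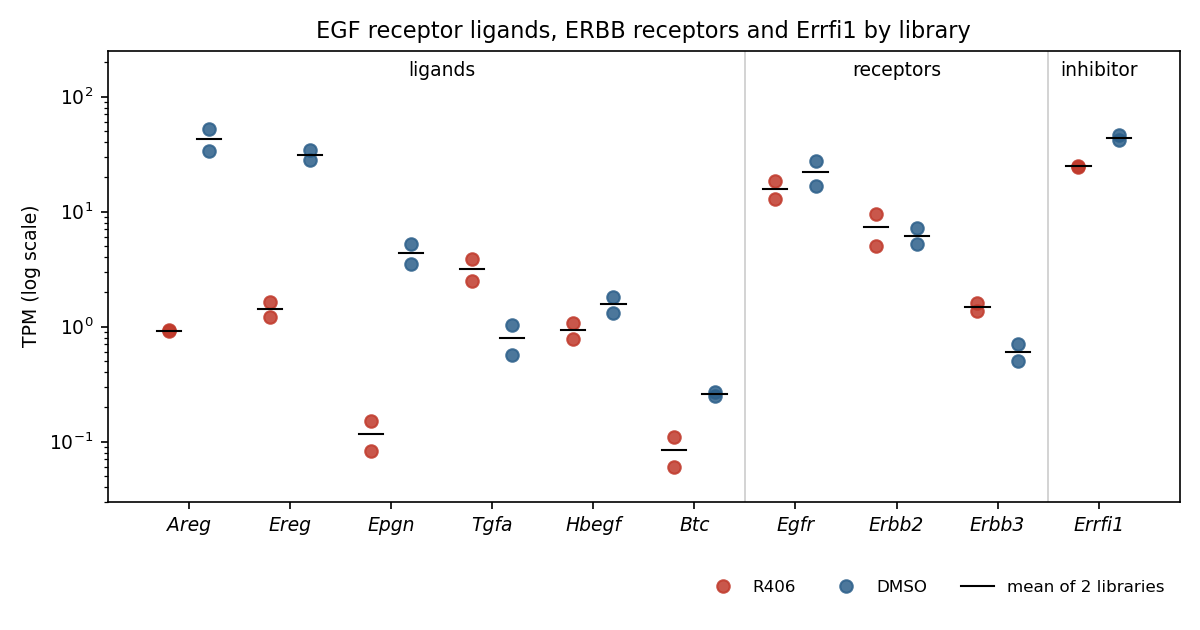
TPM on a log axis for 6 ligand genes, 3 receptor genes and Errfi1; each point is 1 library, with R406 in red at the left of each pair and DMSO in blue at the right, and the bar is the mean of 2 libraries. Areg, Ereg and Epgn show wide gaps between R406 and DMSO, Tgfa and Erbb3 are higher in R406, and Egfr and Erbb2 overlap between the groups.

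The pool of RNA of these 6 ligands was smaller in R406 and differed in make-up. The 6 ligands summed to 7.19 and 6.09 TPM in R406, against 94.1 and 67.3 TPM in DMSO. Areg and Ereg together made 29.7% and 41.8% of the sum in R406 and 91.7% and 91.0% in DMSO. Tgfa was the most abundant of the 6 in both R406 libraries, with 53.5% and 41.0% of the sum, and made 0.598% and 1.55% in DMSO. Without Areg, Ereg and Epgn, the other ligands summed to 4.97 and 3.39 TPM in R406 and 2.64 and 2.61 TPM in DMSO, so the gap in the total came from those 3 genes. These are shares of RNA and say nothing of shed protein. Nrg1, a ligand gene of Erbb3 and Erbb4, is not in these sums. It had 7.38 and 7.20 TPM in R406, above Tgfa, and 13.2 and 14.7 TPM in DMSO.

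**Figure D2:**
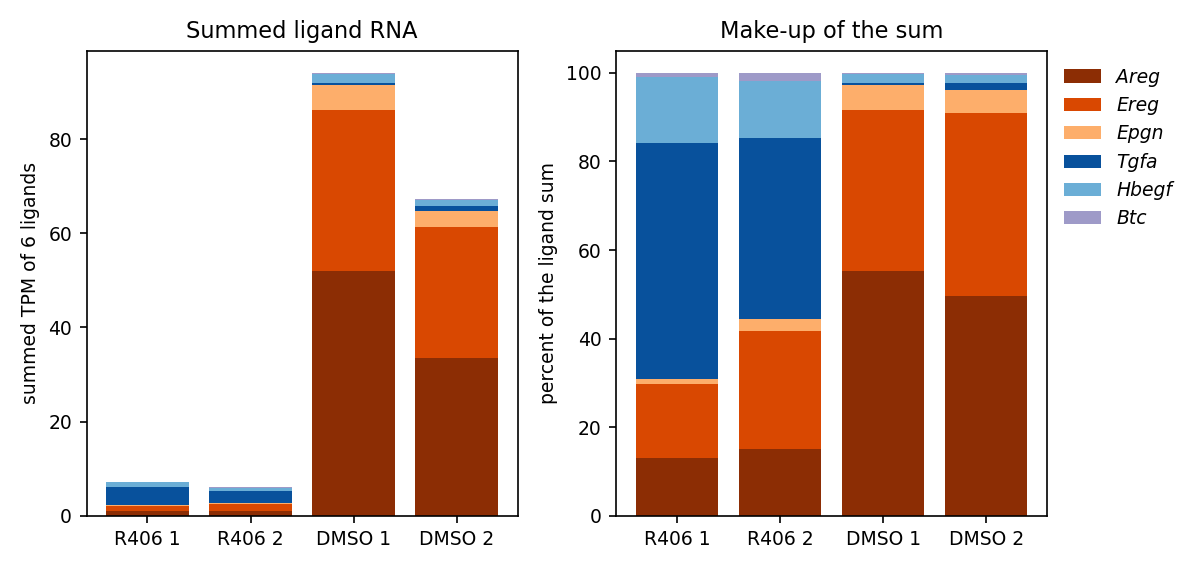
Summed TPM of the 6 ligand genes in each library (left panel) and the percent of that sum given by each ligand (right panel), with the 2 R406 libraries left of the 2 DMSO libraries. The R406 sums are 7.19 and 6.09 TPM with Tgfa as the widest band, and the DMSO sums are 94.1 and 67.3 TPM, mostly Areg and Ereg.

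Receptor RNA showed no such gap. Egfr, the receptor that all 6 ligands bind, had 18.4 and 12.9 TPM in R406 and 27.6 and 16.5 TPM in DMSO. The groups overlapped, and the log2 difference of −0.45 ± 0.32 was close to its standard error. Erbb2 had 9.58 and 5.05 TPM in R406 and 7.12 and 5.21 TPM in DMSO, again overlapping (log2 difference 0.17 ± 0.34, with its sign turned to −0.23 without R406 replicate 1 and to −0.02 without DMSO replicate 2). Erbb3, a neuregulin receptor with little kinase activity that is typical of epithelium, had 1.61 and 1.36 TPM in R406 and 0.500 and 0.703 TPM in DMSO. Its groups did not overlap (log2 difference 0.64 ± 0.19), as was so for 56.1% of all genes tested. The epithelial markers, as a sum, were higher in the same R406 libraries. Whether this bears on Erbb3 was not tested. As a share of the summed RNA of the 4 ERBB receptors, Egfr made 62.2% and 66.8% in R406 and 78.3% and 73.6% in DMSO, while Erbb3 made 5.44% and 7.04% in R406 and 1.42% and 3.13% in DMSO. The TPM values do not show from which strand the reads came, so those of Egfr may include reads of the overlapping Egfros and Gm39584. The same holds for Erbb2 and Mien1, Erbb3 and Mir6917, Ereg and Gm19610, Hbegf and Gm41698, and Errfi1 and 1700045H11Rik.

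Errfi1 (also known as Mig6) encodes a protein that binds the kinase domain of activated ERBB receptors and blocks it, and its RNA is raised by ERK signalling. It had 24.5 and 25.0 TPM in R406 and 41.6 and 46.0 TPM in DMSO. The R406 libraries lay close together and below both DMSO libraries, with a factor of 1.66 between the nearest values and a log2 difference of −0.79 ± 0.18. The order of the 10 genes by mean TPM differed between conditions. In R406 it was Errfi1, Egfr, Erbb2, Tgfa, Erbb3, Ereg, Hbegf, Areg, Epgn and Btc, where the ranges of Erbb3 and Ereg, of Hbegf and Areg, and of Epgn and Btc overlapped. In DMSO it was Errfi1, Areg, Ereg, Egfr, Erbb2, Epgn, Hbegf, Tgfa, Erbb3 and Btc, where the ranges overlapped for Errfi1 and Areg, Areg and Ereg, Erbb2 and Epgn, and Tgfa and Erbb3.

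In the fit over the 13929 genes that averaged 1 TPM or more, 3 of the 9 genes fitted were below the threshold of an adjusted p of 0.05 and lower in R406 (Areg, Ereg and Epgn), and 0 were higher. Over all genes, 4.05% were called lower, 4.26% higher and 8.31% in either direction. Groups did not overlap in 7 of the 9, against 56.1% of all genes. Since the set was drawn up with these values known, nothing is read from these counts.

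Over the 4 libraries, the tested genes most like Areg, by the Euclidean distance of log2(TPM + 1) centred on each gene's mean, were Ppbp, Grp, Clec4n, Ccl8 and Cma2, at distances of 0.34 to 0.59. Ereg came 10th in that order, at 0.80, and Epgn 82nd, at 2.24. Grp was listed at 0 in both R406 libraries and had 21.6 and 11.4 TPM in DMSO. Ppbp, a platelet chemokine gene, had 0.380 and 0.212 TPM in R406 and 32.9 and 28.2 TPM in DMSO. Clec4n, a lectin receptor gene of myeloid cells, had 0.0490 TPM and was listed at 0 in R406, and had 18.2 and 15.6 TPM in DMSO. Cma2 had 1.28 and 0.382 TPM in R406 and 55.7 and 26.2 TPM in DMSO. Ccl8 stayed well above 0, with 46.6 and 62.0 TPM in R406 and 1240 and 1236 TPM in DMSO. With 4 libraries in 2 groups, this likeness mostly ranks the size of the difference.

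Ppbp also lies near the ligand cluster. Within 1 Mb on either side of the cluster, 63 other RefSeq genes are annotated, of which 25 were tested. Of these, 6 were lower and 1 higher in R406, against 4.05% lower and 4.26% higher over all genes tested. Their median log2 difference was −0.50, against −0.02 over all genes tested. These neighbours were looked up after the ligand values were known. The higher one was Cxcl10. The 6 lower ones were Ppbp, Pf4 and Cxcl15, all chemokine genes, the albumin gene Alb, and the noncoding RNA genes U90926 and Gm19610. Other chemokine genes there, Cxcl5, Cxcl3, Cxcl1 and Cxcl2, did not pass, with log2 differences of −0.50, −1.06, −0.11 and −0.24. Ppbp, Pf4, U90926 and Gm19610 averaged under 1 TPM in R406, and Cxcl10 did so in DMSO. They passed the filter on low values through their higher group, so nothing is read from the count. Gm19610 averaged 0.420 TPM in R406 and 3.11 TPM in DMSO (log2 difference −1.53). It overlaps the lower-coordinate end of Ereg, so reads there may be mixed between them. Mthfd2l, the protein-coding neighbour of Epgn, averaged 6.53 TPM in R406 and 8.05 TPM in DMSO (log2 difference −0.27, limma adjusted p = 0.427), and Parm1, the one beyond Btc, 16.0 TPM in R406 and 17.5 TPM in DMSO (−0.12, limma adjusted p = 0.733). The genes called lower thus lay among genes that did not pass the test, most of which also had log2 differences below 0. A missed threshold does not show that those genes did not differ.

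Nfatc1 CUT&Tag peaks were set beside these genes to see where the tagged factor lay. Each list comes from 1 library, so there is no replicate error and no test. The R406 list held 36885 peaks and the DMSO list 21246, a ratio of 1.74. A peak was counted for a gene if it overlapped the gene's span or the 10 kb on either side by at least 1 base. In these windows lay 12 R406 peaks and 9 DMSO peaks, at 6 genes in each list and at 5 in both. Of genes tested for RNA, 76.3% had an R406 peak, 58.7% a DMSO peak and 55.9% both in the same kind of window, so 6, 6 and 5 of 10 were shares near or below the background. Folds below are the authors' enrichment of each peak and are compared only within a list.

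Ereg had the most peaks for its size, with 4 in each list over a window of 39.0 kb, and each R406 peak overlapped a DMSO peak. The peak with the highest fold in each list lay just outside the gene, at chr5:91072225-91072997 in R406 and chr5:91072164-91072899 in DMSO, within Gm19610. Its fold was 19.0 in R406, above 85.6% of that list, and 41.5 in DMSO, above 98.7% of that list. The next, at the lower-coordinate end of Ereg, had a fold of 8.22 in R406 and 16.8 in DMSO, above 41.4% and 85.4% of their lists, and the peaks overlapped by 216 bases. The other peaks lay inside the gene, at summits 8.63 kb from that end in R406 and 8.60 kb in DMSO, with folds of 17.7 and 15.3, and at 17.2 and 17.1 kb, with folds of 7.59 and 6.56. The peaks at Ereg were thus present in both lists, in cells other than those of the RNA libraries, whose Ereg values differed by a factor of 17.0 or more.

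Areg, Epgn and Btc had no peak within 10 kb in either list. The nearest peak to Areg was 47.5 kb away in R406 and 47.7 kb in DMSO, inside Ereg. Epgn had its nearest peak at 20.0 kb in R406 and 20.1 kb in DMSO. The nearest to Btc was 53.8 kb away in R406 and 53.0 kb in DMSO, in the gap of 209 kb that parts it from Areg. Across the cluster with 10 kb on either side there were 5 R406 peaks and 7 DMSO peaks.

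**Figure D3:**
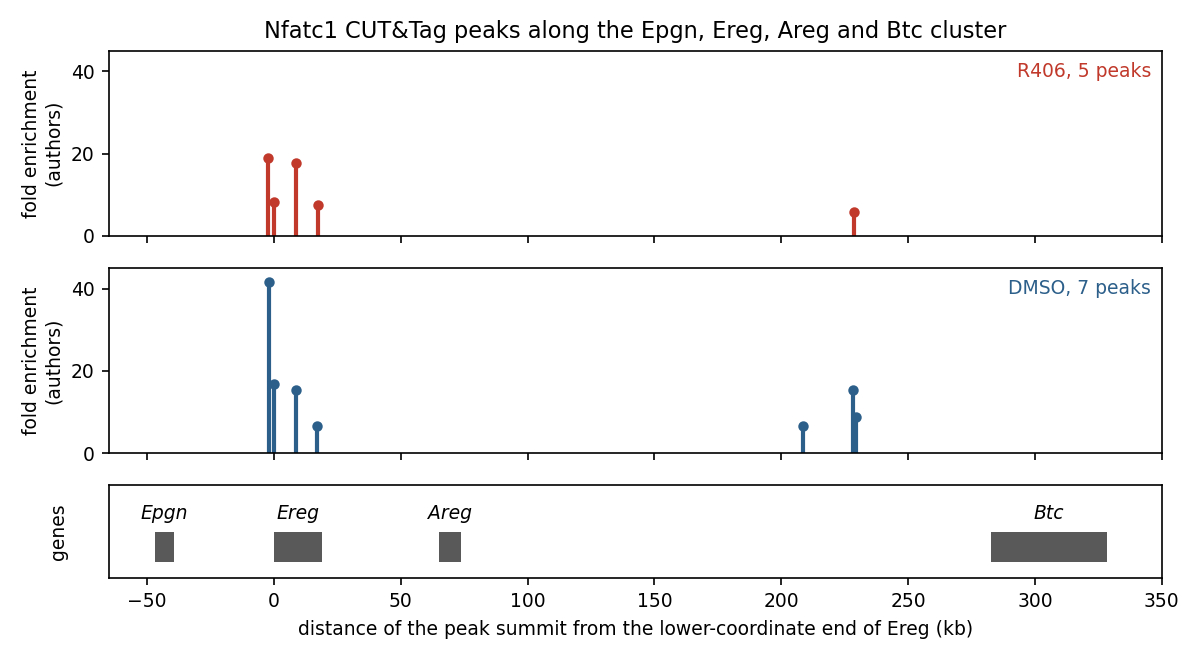
Fold enrichment, from the authors' peak lists, of Nfatc1 CUT&Tag peaks in R406 (top, 5 peaks) and DMSO (middle, 7 peaks) along the ligand gene cluster, placed by the distance of the summit from the lower-coordinate end of Ereg in kb, with gene spans at the bottom. In both lists 4 peaks sit at Ereg and none at Areg, Epgn or Btc, and folds are to be compared within a panel only.

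Elsewhere in the set, Errfi1 had 1 peak in each list at its second promoter, shown above in sequence, at chr4:150854847-150855145 in R406 (fold 13.3, above 72.9% of that list) and chr4:150854772-150855132 in DMSO (fold 7.29, above 31.7%). The summits were 18 bases apart. That promoter also lies within the span of the overlapping gene 1700045H11Rik. Tgfa had 1 shared peak 65.8 kb into its span by the R406 summit and 65.7 kb by the DMSO summit, with a fold of 8.22 in R406 and 13.1 in DMSO. Egfr, the longest gene at 162 kb, had 4 R406 peaks and 1 DMSO peak, of which 1 pair overlapped by 59 bases. The folds of the 4 R406 peaks were 8.22 to 10.1 and the fold of the DMSO peak was 5.83. Hbegf had 1 peak in each list, 246 bases apart, at its higher-coordinate end. Erbb3 had 1 peak in R406 only, 999 bases beyond its lower-coordinate end and inside Pa2g4, and Erbb2 had 1 in DMSO only, with a fold of 4.37, above 0.485% of that list.

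Other genes of the pathway were taken from 5 lists of 64 genes, none of them among the 10. Of 59 tested, 9 fell and 0 rose at an adjusted p of 0.05 by limma over all genes tested, with a median log2 difference of −0.51, against −0.02 over all genes, 4.05% lower and 4.26% higher. An unadjusted limma p under 0.05 was reached by 24, against 3736 of all 13929 genes tested. The lists were written with earlier results of these data in view. Nrg2 averaged under 1 TPM in DMSO, and Adam8 and Dusp5 did so in R406. They passed the filter on low values through their higher group. Without DMSO replicate 1, 1 of the 59 genes was called lower, Etv5, against 7 to 9 on leaving out any other library. Calls over all genes also fell in number there, to 159 higher and 158 lower, against 593 and 564 with all libraries, while the log2 differences of the 9 genes stayed below 0, from −2.32 (Etv5) to −0.97 (Ptprj).

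ERK-responsive genes, whose RNA is known to rise after ERK activation, held the lowest median of the lists, at −1.10. Of 10 tested, 4 fell and 0 rose, against 4.05% lower and 4.26% higher over all genes tested. Etv5, a transcription factor gene of the ETS family, had 3.97 and 5.07 TPM in R406, against 30.0 and 26.4 TPM in DMSO (log2 difference −2.41 ± 0.21, limma adjusted p = 0.0137). The groups lay far apart, with a factor of 5.22 between the nearest values. Ccnd1, which encodes cyclin D1 and drives entry into the cell cycle, had 58.8 and 49.5 TPM in R406 and 227 and 196 TPM in DMSO (−1.95 ± 0.20, limma adjusted p = 0.0165). Phlda1 had 17.5 and 16.8 TPM in R406 and 78.2 and 56.8 TPM in DMSO (−1.90 ± 0.23, limma adjusted p = 0.0192). Fosl1, an AP-1 subunit gene, had 10.7 and 7.75 TPM in R406 and 70.3 and 33.8 TPM in DMSO (−2.30 ± 0.40, limma adjusted p = 0.0373). Without DMSO replicate 1 the log2 difference was −2.32 for Etv5 (limma adjusted p = 0.0311), −1.84 for Ccnd1 (0.0557), −1.67 for Phlda1 (0.0638) and −1.78 for Fosl1 (0.0653). Not all ERK-responsive genes were lower: Ier3 had 173 and 143 TPM in R406 and 200 and 120 TPM in DMSO, and Myc had 10.8 and 4.90 TPM in R406 and 3.36 and 3.39 TPM in DMSO (limma adjusted p = 0.190). Ier3 and Myc were picked out after their values were seen. The remaining tested genes, Plaur, Etv4, Fos and Mcl1, also did not pass, with log2 differences of −1.47, −0.73, −0.29 and −0.20. Egr1 was too low to be tested, with means of 0.925 TPM in R406 and 0.701 TPM in DMSO.

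Inhibitors of the pathway, which with Errfi1 hold it in check, had a median of −0.57, and all 19 tested had log2 differences below 0, from −2.01 to −0.02. Of these 4 fell by limma, against 4.05% of all genes tested, whose median was −0.02. This list too was written with earlier results of these data in view. Dusp6, an ERK phosphatase gene, had 2.49 and 2.22 TPM in R406 and 8.97 and 7.33 TPM in DMSO (limma adjusted p = 0.0257). Dusp4, which encodes a related phosphatase of the nucleus, had 2.38 and 1.69 TPM in R406 and 14.2 and 8.67 TPM in DMSO (limma adjusted p = 0.0277). Spred1, an inhibitor of RAS signalling, had 8.99 and 9.53 TPM in R406 and 19.9 and 23.6 TPM in DMSO (limma adjusted p = 0.0352). Ptprj, a receptor phosphatase gene, had 3.00 and 2.69 TPM in R406 and 6.42 and 6.55 TPM in DMSO (limma adjusted p = 0.0457). None of the 4 kept its call without DMSO replicate 1 (limma adjusted p of 0.0628 to 0.199), where the log2 difference was −1.31 for Dusp6, −1.68 for Dusp4, −1.26 for Spred1 and −0.97 for Ptprj, against −1.44, −2.01, −1.15 and −0.96 with all libraries. Spred1 also lost its call without R406 replicate 1 (limma adjusted p = 0.0679) and without DMSO replicate 2 (0.166), and Ptprj lost it on leaving out any 1 library (0.0826 to 0.199).

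Among 11 tested genes of ligand shedding 1 fell, against 4.05% of all genes tested. Adam9, a membrane protease gene, had 35.2 and 34.0 TPM in R406 and 113 and 105 TPM in DMSO (log2 difference −1.63 ± 0.18, limma adjusted p = 0.0177; without DMSO replicate 1, −1.57 and 0.0766). Adam17, the main sheddase of Areg, Ereg, Tgfa and Hbegf, had 13.7 and 14.5 TPM in R406 and 21.3 and 19.8 TPM in DMSO (limma adjusted p = 0.154). Adam19 had 23.0 and 19.0 TPM in R406 and 40.2 and 39.3 TPM in DMSO (limma adjusted p = 0.0580), and Adam8 had 1.39 and 0.529 TPM in R406 and 2.35 and 1.89 TPM in DMSO (limma adjusted p = 0.198).

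The adaptors and kinases between receptor and nucleus were less far apart. Of 17 tested 0 passed the threshold, and log2 differences ran from −0.66 to 0.22. An unadjusted limma p under 0.05 was reached by 2, against 3736 of all 13929 genes tested. The lowest p were those of Ptpn11, which encodes the phosphatase SHP2, at 44.4 and 41.6 TPM in R406 and 77.0 and 61.0 TPM in DMSO (limma adjusted p = 0.119), Plcg1 (0.143), Sos1 (0.205) and Map2k1 (0.216). A missed threshold does not show that these genes did not differ. Of the other ligands and Erbb4, only Nrg1 and Nrg2, which encode neuregulins, ligands of Erbb3 and Erbb4, were high enough to be tested. Nrg1 had 7.38 and 7.20 TPM in R406 and 13.2 and 14.7 TPM in DMSO (limma adjusted p = 0.0594). Nrg2 had 3.40 and 1.52 TPM in R406 and 0.361 and 0.335 TPM in DMSO (limma adjusted p = 0.0724). Neither passed, although R406 and DMSO values lay apart for both. Nrg2 averaged 0.348 TPM in DMSO and entered the fit through R406, its higher group. Egf was low, at 0.385 and 0.168 TPM in R406 and 0.0561 and 0.0619 TPM in DMSO, and Erbb4 stood at 0.0204 TPM or less in each library.

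**Figure D4:**
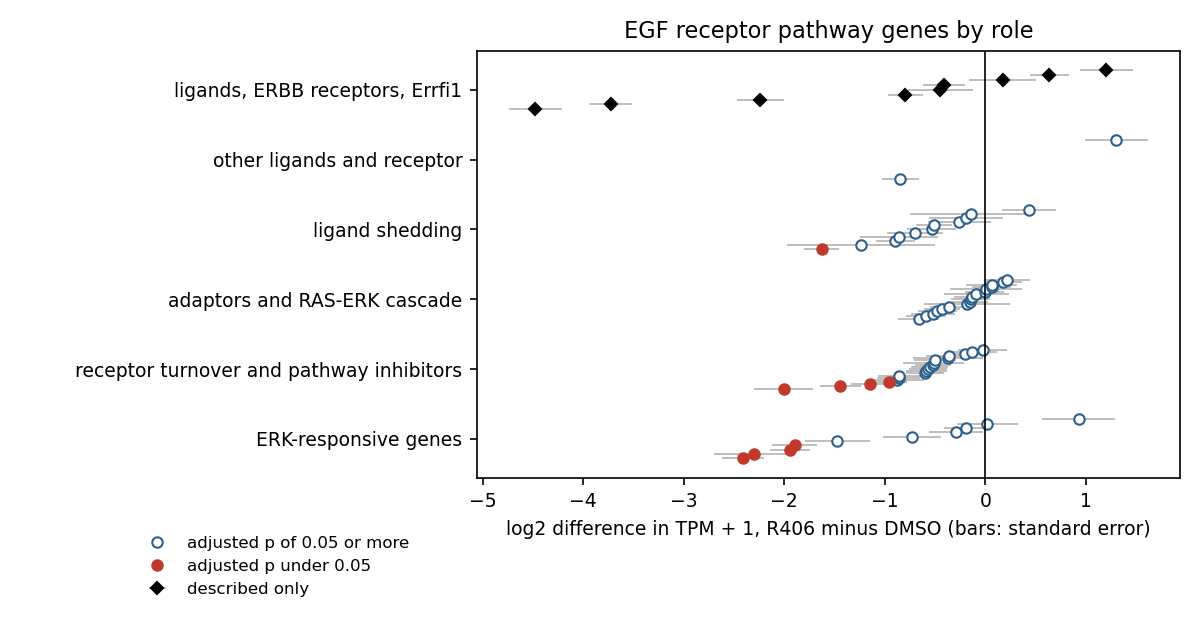
Log2 difference in TPM + 1, R406 minus DMSO, for each fitted gene by role, with its standard error; black diamonds are the ligands, ERBB receptors and Errfi1, shown without their calls because they were chosen on this contrast, and circles are the genes of 5 other lists, filled where limma's adjusted p was under 0.05. The 9 filled circles all lie left of 0, in ligand shedding (1), inhibitors (4) and ERK-responsive genes (4), and the adaptors lie close to 0.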

How the data were processed

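RNA-seq covered 2 R406 and 2 DMSO libraries, CUT&Tag 1 of each, grouped by sample titles. The authors deposited TPM per gene; the 4 single-library files equal the columns of the series table. Per the submitters' processing notes, tools included HISAT2 2.1.0 and StringTie 2.0 for RNA, and Bowtie2 2.2.5 and MACS2 2.1.2 for CUT&Tag, all on mm10; the sources used here do not give their settings. The deposited peak lists hold per peak a score, the −log10 of its p-value and of its q-value, and its fold enrichment; the lowest −log10 p was 5.00 in R406 and 5.03 in DMSO. Total RNA was made into libraries with an NEBNext Ultra kit, per the labels.

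Symbols came from a gene table that named 53620 of 53715 identifiers; spans and promoters came from RefSeq GRCm38.p6. Genes averaging 1 TPM or more entered limma 3.58.1 (R 4.3.3) on log2(TPM + 1), with a variance prior that follows mean level; p-values were two-sided and adjusted over all genes tested by Benjamini-Hochberg. TPM shares a fixed total, so a rise of abundant genes lowers all others. Genes were named as follows: all 10 of the set, up to 4 per pathway list with the smallest p, and the 5 nearest Areg; exceptions are stated. Members, lists and tests were chosen with earlier results of these data known. Replicate numbers did not enter the model, as no label says they mark a shared culture. Alternatives were other pseudocounts, filters, scalings and windows, a stricter peak threshold, a replicate block and leaving out each library.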

Additional observations from a re-analysis of the deposited data

How the results depend on the processing

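Counts for the 10 genes, which were chosen on this contrast, are descriptions and show nothing of stability. With no filter on low values, limma called 0 of 27879 genes in each direction (5394 had an unadjusted p under 0.05), hence 0 of the 10 genes and 0 of the other pathway genes lower. The direction of Erbb2 was not stable: its log2 difference ran from −0.23 to 0.57 on leaving out single libraries. Over all genes, the main counts of 593 higher and 564 lower became 311 and 332 with a mean of at least 5 TPM. They became 933 and 755 with median centring, and 877 and 850 with quantile normalization. The last pair of settings each called Tgfa (1 of the 10 genes) and Nrg2 (1 other pathway gene) higher. Both genes averaged under 1 TPM in DMSO and passed the filter through R406, so these calls are descriptions only. Leaving out 1 library gave 159 to 914 genes higher and 158 to 574 lower over all genes, 0 to 1 higher and 3 lower among the 10, and 0 to 2 higher and 1 to 9 lower among the other pathway genes. With the replicate block the counts were 2128 and 2535 over all genes, 1 and 4 among the 10 genes (Errfi1 joined the lower ones) and 1 and 27 among the other pathway genes. Same-numbered libraries deviated together (r = 0.556 across genes), but 2 pairs do not show that the numbers pair the cultures. The median over all genes was −0.02, and −0.14 without R406 replicate 1. The cause of these shifts was not tested. Peak counts at the 10 genes stayed within 1.5 times the main ones under each alternative. TPM keeps no depth, so how far counting error limits the low values of Epgn, Btc and Erbb4 is unknown.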
